A study of Mus musculus with 6 samples.

Results

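The genes described here make cholesterol and fatty acids, control that synthesis, or export sterols. A list of 38 such genes was read in thymic lymphomas of Ikaros-deficient mice, and 37 of them had at least 1 probe set carrying their symbol alone. Acat2, a thiolase that makes acetoacetyl-CoA, had none and was not analysed here. These 37 genes had 88 probe sets, and they stand among 18193 genes so represented on the array. Where a gene had several probe sets, 1 was chosen by its mean intensity over the 6 arrays, the highest being taken. That choice does not use the genotype. The list itself was drawn up with earlier results of these data known, so its counts and medians are descriptions.

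Each of the 6 tumours came from its own mouse, homozygous for IkL, a hypomorphic allele of Ikaros, and positive for CD4-Cre, which drives Cre recombinase in the T lineage. The Notch1+/+ group (wild-type Notch1) held 3 mice of 18 to 20 weeks. The Notch1f/f group (both alleles floxed) held 3 mice of 8 to 10 weeks, whose tumours the labels give as deleted for the Notch promoter and exon 1. Age and genotype changed together and cannot be told apart. The labels call the cells transformed T cells and mention no sorting. The tumours of a group are numbered 1 to 3. Notch1 itself read 3636, 2532 and 2838 in the Notch1+/+ tumours and 3294, 3043 and 3418 in the Notch1f/f tumours on its brighter probe set, and 1792, 656 and 568 against 2026, 1346 and 2212 on the other. Where these lie relative to the deleted part was not examined, so they do not check the labels.

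The measurement was the MAS5 intensity of a probe set, a linear signal with each array scaled to the same trimmed mean. The share of probe sets brighter than 100 was 23.1% to 25.0%. T cell markers were high on every array, with a summed intensity of 17910 to 20439 over 11 genes in the Notch1+/+ tumours and 21434 to 25382 in the Notch1f/f tumours. Notch1+/+ tumour 1 stood apart in the beta-actin control, with a 3′ over 5′ signal ratio of 2.23 against 1.35 to 1.64 on the other arrays. For the Gapdh control its ratio was also the highest, at 1.08, but the others reached 1.03. The 18S ribosomal RNA control (5′ probe set) read 24.3 to 88.8 on the Notch1+/+ arrays and 195.9 to 228 on the Notch1f/f arrays. Its 3′ probe set read 64.8 to 125.1 and 249.5 to 318.9. What lies behind this difference cannot be told apart from genotype, and its part in the comparisons below was not tested.

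Cells make cholesterol from acetyl-CoA through mevalonate, squalene and a series of sterol rings. When membrane sterol is low, the SREBP proteins leave the endoplasmic reticulum with their escort Scap, are cut, and switch on the genes of this pathway and of fatty acid synthesis. Insig proteins hold them back when sterol is plentiful, and oxidised sterols then activate the LXR receptors, which induce the sterol exporters Abca1 and Abcg1. Proliferating lymphocytes are known to raise lipid synthesis to build new membrane.

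Most of the synthesis genes had lower intensities in the Notch1f/f tumours, and both sterol exporters had higher ones. Of the 37 members, 27 had a log2 difference (Notch1f/f minus Notch1+/+) below 0 and 10 above. Their median was -0.21, while the 12042 genes past the filter on dim probe sets (a mean log2 level under the 40th percentile) had a median of -0.01. All 37 passed that filter. The 2 groups did not overlap in 12 members, 9 lower and 3 higher, where 9.14% of genes past the filter were lower and 9.21% higher without overlap. The 9 were Hmgcs1, Fdft1, Sqle, Lss, Cyp51, Acaca, Fasn, Elovl1 and Fads2, and the 3 were Elovl5, Abca1 and Abcg1.

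No member passed an adjusted p of 0.05 in limma (Benjamini-Hochberg over 27022 probe sets), which 0.0185% of probe sets did. The lowest adjusted p among the members was 0.202, for Cyp51, and none reached 0.10. At an unadjusted p under 0.05, 8 members were lower, against 6.21% of genes, and 2 were higher, against 6.97%. With 3 tumours a group, the differences below therefore stand as measured values that did not pass the test.

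**Figure D1:**
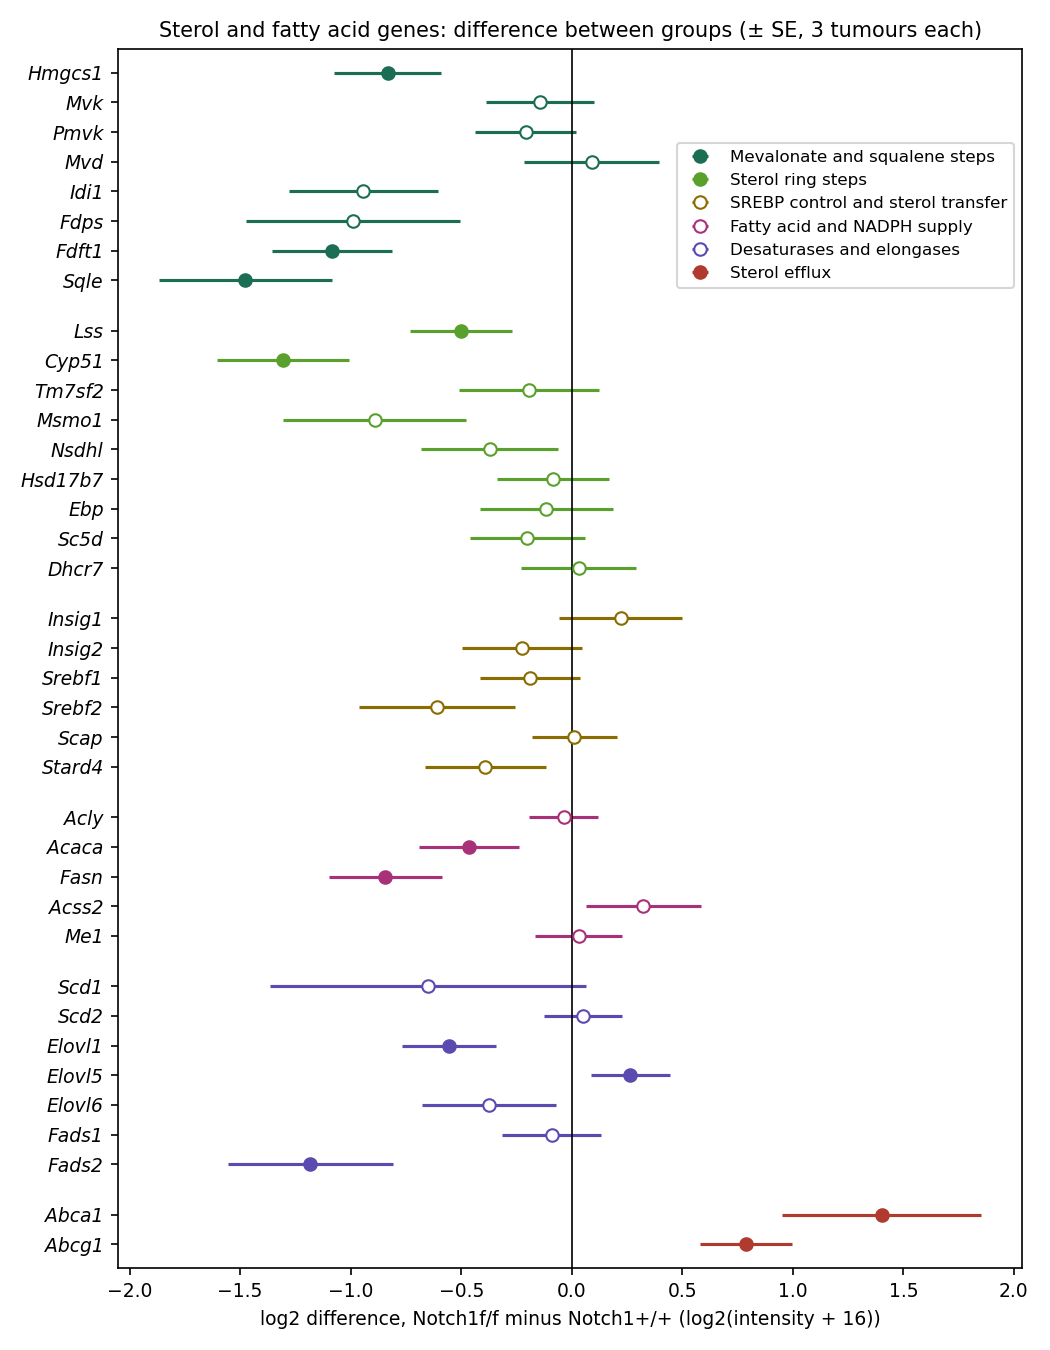
Log2 difference in intensity between the Notch1f/f and the Notch1+/+ tumours for the 37 genes, on the scale of log2(intensity + 16), coloured by role. Points are the difference, bars its SE, and filled points mark genes whose 2 groups did not overlap. Sqle lies farthest to the left, at -1.48, and Abca1 farthest to the right, at 1.40.

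Most genes of the mevalonate and squalene steps had lower intensities in the Notch1f/f tumours. Of 8 genes measured, 7 were below 0, with a median log2 difference of -0.89. Sqle, the squalene epoxidase that commits squalene to sterols, had intensities of 132.8, 379.9 and 420.1 in Notch1+/+ tumours 1 to 3 and of 100.6, 92.5 and 78.4 in Notch1f/f tumours 1 to 3. The groups did not overlap, but Notch1+/+ tumour 1 lay much nearer the Notch1f/f tumours than its own group. The difference was -1.48 ± 0.39 (SE), or 2.78-fold on the log2(intensity + 16) scale (limma adjusted p = 0.250).

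Fdft1, squalene synthase, had 168.1, 238.0 and 179.5 in the Notch1+/+ tumours against 92.1, 105.4 and 57.2. Each Notch1f/f tumour was below each Notch1+/+ tumour here, tumour 1 included. The log2 difference was -1.08 ± 0.27 (adjusted p = 0.234 in limma), and averaging the gene's 4 probe sets, of which 2 were near background, gave -0.57. Hmgcs1, the synthase that makes HMG-CoA, had 555.6, 770.2 and 935.3 against 433.3, 469.5 and 331.1, a log2 difference of -0.83 ± 0.24 (adjusted p = 0.277 in limma). Its probe set is marked as one that can match more than 1 transcript, as is that of Fdft1, yet the next brightest, without that mark, gave -1.08 ± 0.31 for Hmgcs1 and -0.99 ± 0.30 for Fdft1. On another bright Hmgcs1 probe set the groups overlapped (-0.67 ± 0.25), and the dimmest, near background, gave -0.03 ± 0.22. Averaging the 5 probe sets of Hmgcs1 gave -0.71.

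Fdps and Idi1 act on the isoprenoid units between mevalonate and squalene. Fdps, farnesyl diphosphate synthase, had 127.4, 544.5 and 582.1 against 176.6, 165.2 and 160.1. Notch1+/+ tumour 1 was thus the lowest of the 6, and the other 2 tumours of its group were high. The log2 difference was -0.99 ± 0.48 (limma adjusted p = 0.400) and was -1.66 without that tumour (0.0841) and -0.50 on averaging both probe sets. Idi1, the isomerase before it, had 243.2, 525.7 and 519.4 against 287.7, 168.5 and 172.9, with the same tumour among the low values (-0.94 ± 0.34, limma adjusted p = 0.304). The mevalonate kinases and decarboxylase were dim and close between groups. Mvk had log2 differences of -0.14 ± 0.24, Pmvk of -0.21 ± 0.23 and Mvd of 0.09 ± 0.31, with mean intensities of 44.7, 73.5 and 55.2 over the 6 arrays.

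Among the sterol ring steps, 8 of 9 genes were below 0, with a median of -0.20. Cyp51, the lanosterol demethylase, had 89.4, 193.5 and 146.0 in the Notch1+/+ tumours against 54.6, 44.1 and 39.6. Every Notch1f/f tumour was below every Notch1+/+ tumour, at a log2 difference of -1.31 ± 0.30, and its other tested probe set gave -1.07 ± 0.28 (limma adjusted p = 0.202 and 0.250). Lss, the cyclase that forms lanosterol, had 57.5, 67.4 and 75.3 against 40.9, 39.5 and 46.3, a smaller gap with no overlap (-0.50 ± 0.23, limma adjusted p = 0.379). That Lss probe set is marked as one that can match more than 1 transcript, and on the other tested one the groups overlapped (-0.44 ± 0.25). Msmo1, the sterol methyl oxidase, had 46.3, 146.0 and 137.8 against 64.7, 55.3 and 26.3, so that Notch1+/+ tumour 1 again lay among the Notch1f/f values (-0.89 ± 0.41, limma adjusted p = 0.383). Averaging all probe sets of a gene, dim ones included, gave -0.85 for Cyp51, -0.29 for Lss and -0.50 for Msmo1.

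The remaining ring enzymes differed less. Nsdhl, a dehydrogenase in the removal of the sterol methyl groups, had a log2 difference of -0.37 ± 0.31. Tm7sf2, Hsd17b7, Ebp, Sc5d and Dhcr7 are reductases, an isomerase and a desaturase of the ring steps. On their brightest probe sets they ranged from -0.20 to 0.03. There their limma adjusted p-values were 0.756 or more, and their groups overlapped. Sc5d and Dhcr7 both had their highest value in Notch1f/f tumour 1, at 195.4 and 262.5. The next brightest Sc5d probe set gave -0.63 ± 0.31, with overlap, and the dimmest -0.07 ± 0.19.

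**Figure D2:**
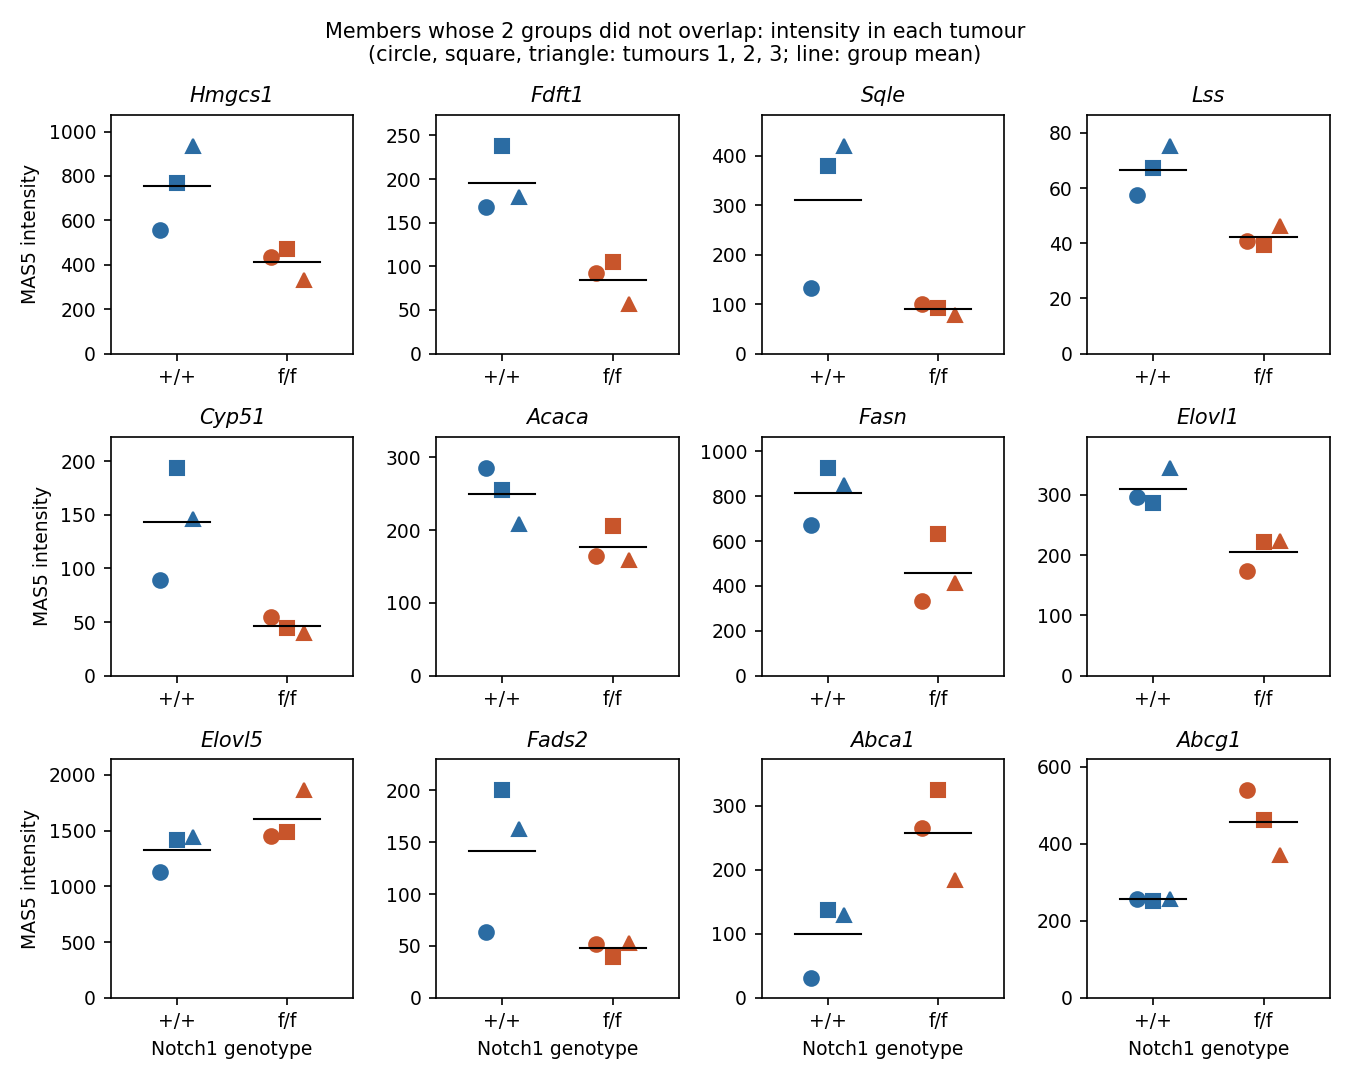
MAS5 intensity (linear axes from 0) of the 12 members whose groups did not overlap, with a panel per gene. Each point is a tumour, shaped by its number, and the line is the group mean. Notch1+/+ tumour 1 (circle) lies nearest the Notch1f/f tumours for Sqle, Cyp51 and Fads2, while Abcg1 has nearly equal values in the 3 Notch1+/+ tumours.

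The promoter sequences of 30 of the 38 listed genes were in the RefSeq promoter table (GRCm38.p6), as 40 windows of 300 bases from 250 before to 50 after an annotated start. SREBPs bind sterol regulatory elements, often beside a box for the factor NF-Y. Both strands were searched for TCACNCCAC, a form of the first, and for CCAAT, the core of the second. TCACNCCAC was found in 1 of the 40 windows, that of Hmgcs1, and in 1.24% of all 32851 windows. CCAAT was found in 25 of the 40 (62.5%) and in 37.4% of all windows. By gene, 24 of 30 members (80.0%) and 41.1% of all genes had CCAAT in at least 1 window. The windows of Hmgcs1, Cyp51 and Fasn, which had lower intensities in every Notch1f/f tumour, are given with that of Abca1, which had higher ones. They run in the direction of transcription, with both motifs in capitals on either strand (CCAAT reads ATTGG on the other). Hmgcs1 lies at chr13:119690101-119690400 on the plus strand, and Cyp51 at chr5:4104648-4104947, Fasn at chr11:120824498-120824797 and Abca1 at chr4:53159846-53160145 on the minus strand.
Hmgcs1: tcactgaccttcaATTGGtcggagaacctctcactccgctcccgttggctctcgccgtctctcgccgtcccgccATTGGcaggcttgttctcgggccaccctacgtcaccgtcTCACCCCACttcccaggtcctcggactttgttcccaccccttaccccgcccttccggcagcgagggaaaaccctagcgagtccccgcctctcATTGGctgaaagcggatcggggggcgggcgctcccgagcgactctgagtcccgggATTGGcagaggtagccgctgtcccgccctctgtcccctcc
Cyp51: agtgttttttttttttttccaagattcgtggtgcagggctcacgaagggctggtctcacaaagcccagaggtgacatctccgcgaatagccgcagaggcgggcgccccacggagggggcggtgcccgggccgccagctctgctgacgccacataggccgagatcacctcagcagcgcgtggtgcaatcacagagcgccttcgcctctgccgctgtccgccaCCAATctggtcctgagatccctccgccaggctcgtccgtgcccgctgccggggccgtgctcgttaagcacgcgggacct
Fasn: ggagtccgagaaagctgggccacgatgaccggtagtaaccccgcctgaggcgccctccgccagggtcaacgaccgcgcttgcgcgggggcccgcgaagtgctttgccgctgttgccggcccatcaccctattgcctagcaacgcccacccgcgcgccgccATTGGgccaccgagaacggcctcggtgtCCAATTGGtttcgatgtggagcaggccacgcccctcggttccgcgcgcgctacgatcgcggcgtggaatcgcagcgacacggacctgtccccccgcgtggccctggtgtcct
Abca1: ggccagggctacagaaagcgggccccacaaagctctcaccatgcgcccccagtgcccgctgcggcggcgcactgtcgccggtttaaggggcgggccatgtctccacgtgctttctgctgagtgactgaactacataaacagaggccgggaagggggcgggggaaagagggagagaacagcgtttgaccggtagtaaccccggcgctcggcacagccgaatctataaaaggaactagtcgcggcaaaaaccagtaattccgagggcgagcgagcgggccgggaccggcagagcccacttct

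The Hmgcs1 window holds TCACNCCAC once, 137 bases before the start, and 4 CCAAT boxes on the other strand, 237, 176 and 45 bases before the start and 10 after it. Cyp51 has 1 CCAAT, 29 bases before the start. Fasn has 3, of which those 62 and 59 bases before the start overlap on opposite strands. Abca1 has neither motif in this window. These 4 windows do not stand for all members without overlap. Acaca and Fads2, which were lower, had neither motif, and Lss and Elovl1, also lower, had CCAAT. Elovl5, which was higher, had CCAAT too. Sqle, Fdft1 and Abcg1 had no window. A match shows the letters and not binding, and other forms of the elements were not searched.

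On their brightest probe sets, the controllers of SREBP overlapped between the groups. Of 6 genes for SREBP control and sterol transfer, 4 were below 0, none was without overlap, and their median log2 difference was -0.21. Srebf2, which encodes the SREBP of the cholesterol genes and is itself a target, had 199.8, 588.0 and 415.4 against 279.2, 227.9 and 203.7 (-0.61 ± 0.35, limma adjusted p = 0.466). As for Fdps, Notch1+/+ tumour 1 was the lowest of all and the other 2 were high. The difference was -1.02 without that tumour and -0.28 without Notch1+/+ tumour 2. Srebf1, which encodes the SREBP forms of the fatty acid genes, ranged from 635 to 818 and from 495 to 816 in the 2 groups (-0.19 ± 0.23). Scap was almost level, at 428.5 ± 40.5 (SD, n = 3) against 432 ± 41.1.

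Insig1, a retention protein that SREBP also induces, was 131 ± 7.35 in the Notch1+/+ tumours and 161.6 ± 53.3 in the Notch1f/f tumours (0.22 ± 0.28). It was thus not lower with the synthesis genes. Insig2 had a log2 difference of -0.22 ± 0.27. Its next brightest probe set had groups that did not overlap (-0.38 ± 0.22), and its dimmest had groups that did (-0.08 ± 0.32). Stard4, a carrier that moves cholesterol between membranes, had -0.39 ± 0.27 on its brightest probe set, while the other 2 had groups that did not overlap, at -0.69 ± 0.26 and -0.56 ± 0.28.

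In the fatty acid branch, Fasn and Acaca were lower. Acly and Acss2, which supply acetyl-CoA, were level or higher on their brightest probe sets. Fasn, fatty acid synthase, had 669.6, 924.9 and 851.1 against 334.0, 631.2 and 412.0, a log2 difference of -0.84 ± 0.26 (limma adjusted p = 0.290). Notch1f/f tumour 2 came close to the lowest Notch1+/+ tumour, and without it the difference was -1.09 (0.0827). Acaca, the carboxylase that makes malonyl-CoA, had 285.4, 255.2 and 208.4 against 163.9, 206.3 and 158.5, where 208.4 and 206.3 almost met (-0.46 ± 0.23, limma adjusted p = 0.397). Acly, which releases acetyl-CoA from citrate, was bright and level at 1450 ± 137 (SD, n = 3) against 1411 ± 68.2. Its other tested probe sets gave 0.06 ± 0.15 and -0.45 ± 0.25, both with overlap. Acss2, which makes acetyl-CoA from acetate, had a log2 difference of 0.32 ± 0.26 and, on its next probe set, 0.58 ± 0.25 without overlap. Me1, a source of NADPH, was near background at a mean intensity of 14.2.

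The desaturases and elongases went different ways. Fads2, the delta-6 desaturase of polyunsaturated fatty acids, had 63.1, 200.1 and 162.6 against 52.3, 39.2 and 53.3, a log2 difference of -1.18 ± 0.37 (limma adjusted p = 0.290). The groups were apart on this probe set, and Notch1+/+ tumour 1 was nearest the Notch1f/f values. On the other tested probe sets of Fads2 the groups overlapped, at -1.03 ± 0.39 and -0.56 ± 0.32. Fads1, the delta-5 desaturase encoded beside it, was level at 219.7 ± 41.4 (SD, n = 3) against 203 ± 14.7. Elovl1, an elongase of very long chains, had 296.4, 286.4 and 344.1 against 172.7, 221.7 and 223.1 (-0.56 ± 0.21, limma adjusted p = 0.321), with no overlap on its 3 brightest probe sets.

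Elovl5, which elongates polyunsaturated chains, was higher by a narrow gap, at 1131, 1418 and 1439 against 1453, 1487 and 1864 (0.26 ± 0.18, limma adjusted p = 0.530). On its other probe set, also bright, the groups overlapped (0.18 ± 0.17). Elovl6, an elongase of saturated chains, had -0.37 ± 0.30 with overlap. Scd1, a stearoyl-CoA desaturase, varied most among tumours of a group, at 14.2, 44.1 and 235.0 against 15.4, 22.4 and 81.6, so that its difference of -0.65 ± 0.71 had no settled sign. In each group tumour 3 was the highest, and the tumours are not paired.

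Scd2, the desaturase paralogue, was the brightest member, and its probe sets disagreed. The brightest gave 3483 ± 604 (SD, n = 3) against 3598 ± 542, a log2 difference of 0.05 ± 0.18. The middle one gave -0.68 ± 0.37 and the dimmest -1.44 ± 0.50, with 107.5, 281.5 and 374.3 against 89.3, 127.9 and 31.5. Where along the transcript these probe sets lie was not examined. Of 25 members with at least 2 tested probe sets, 21 had the same sign on each of them. Besides Scd2, the exceptions were Acly, Hsd17b7 and Scap, each with log2 differences under 0.5 in size.

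**Figure D3:**
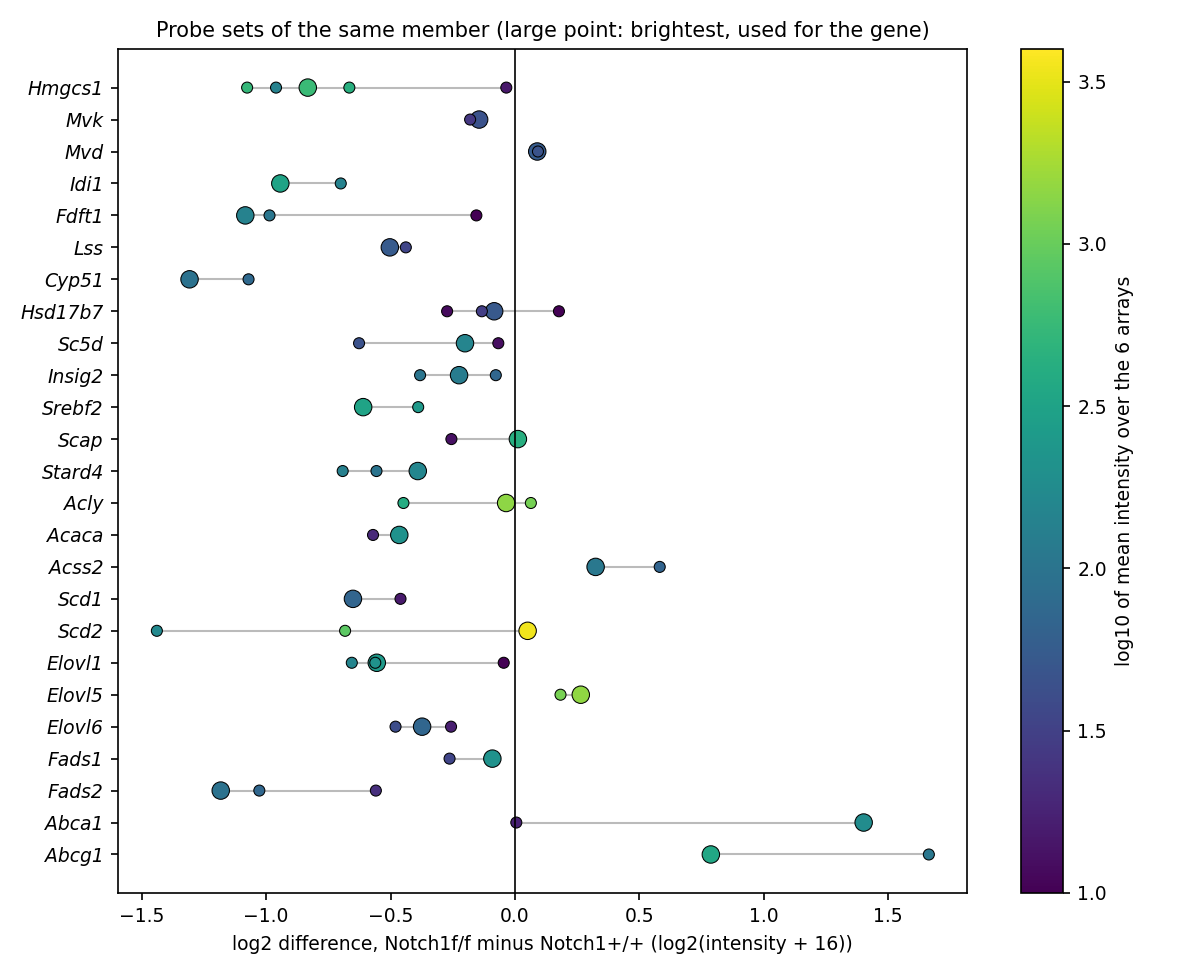
Log2 difference (Notch1f/f minus Notch1+/+, log2(intensity + 16) scale) of each tested probe set of the 25 members with at least 2, coloured by the log10 of the mean intensity. The large point is the brightest probe set, which stands for the gene. The probe sets of Cyp51, Idi1 and Lss lie close together, those of Scd2 run from -1.44 to 0.05, and the dim Abca1 probe set is at 0.01 beside 1.40.

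Both sterol exporters were higher in the Notch1f/f tumours. Abca1, which loads cholesterol onto apolipoprotein A-I, had 30.3, 137.4 and 130.0 in the Notch1+/+ tumours against 264.7, 324.3 and 184.0. The log2 difference was 1.40 ± 0.45 (limma adjusted p = 0.294), and 0.84 without Notch1+/+ tumour 1, the lowest of all. A second probe set of Abca1 read at most 22.5 on any array (0.01 ± 0.21), and averaging the probe sets gave 0.47. Abcg1, which exports sterol to HDL, had 257.8, 251.2 and 256.7 against 538.9, 461.5 and 370.9. The Notch1+/+ tumours were nearly equal and each Notch1f/f tumour lay above them, at 0.79 ± 0.21 (limma adjusted p = 0.254). The dimmer Abcg1 probe set had 40.6, 43.5 and 30.0 against 222.7, 65.9 and 235.7 (1.66 ± 0.42), also without overlap, and averaging both gave 1.23.

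Macrophages are rich in both exporters, and their markers were higher in the same tumours. Of 12 macrophage markers, 10 were above 0 and 6 were higher without overlap, against 9.21% of genes past the filter. Their summed intensity was 285 to 997 in the Notch1+/+ tumours and 1508 to 2918 in the Notch1f/f tumours. C1qa, a complement gene of macrophages, had 21.1, 114.3 and 134.7 against 235.6, 228.8 and 420.2. Marco, a scavenger receptor of certain macrophages, went the other way and read at most 0.6 in the Notch1f/f tumours. Adgre1, another of the 12, was also below 0, at 19.2, 51.9 and 31.2 against 16.9, 27.9 and 36.6 (-0.19 ± 0.30). Cd14 was nearly level (0.15 ± 0.39). Within the Notch1+/+ group, Abca1 was lowest in tumour 1 as C1qa was, while Abcg1 was nearly the same in all 3. In Notch1f/f tumour 3, where the macrophage sum was highest, the brightest probe set of each exporter had the lowest value of its group, but the dimmer Abcg1 probe set had the highest. In unsorted tumours, more cells of a type and more RNA per cell cannot be told apart, and the part of macrophages in the exporter values was not tested.

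The 7 B cell markers summed to 335 to 1100 against 1312 to 3432, almost all of it from Ighm, an immunoglobulin heavy chain, at 266 to 1017 against 1195 to 3153. Cd79a and Cd79b also had no overlap, at lower intensities, while Ms4a1, Pax5, Blnk and Cr2 overlapped. Adipocytes, which make fatty acids, gave little signal: Adipoq, Lep, Cidec and Plin4, 4 of 8 adipocyte markers, read below 10 on every array. Fabp4, also present in macrophages and endothelium, reached 135. The summed adipocyte signal was 51.1 to 208 against 137 to 274, most of it from Fabp4 and Lpl, and the part of adipocytes in the Fasn and Acaca values was not tested. Thymic epithelial markers (8 genes) summed to 96.2 to 107 and 104 to 173. The 9 fibroblast and endothelial markers summed to 358 to 1543 against 285 to 332, and the 4 erythroid markers to 14.5 to 60.1 against 19.8 to 53.8.

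Cell division genes were also lower in the Notch1f/f tumours. All 17 measured had a log2 difference below 0, with a median of -0.53. Of these, 7 were lower without overlap, against 9.14% of genes past the filter, and none passed an adjusted p of 0.05 in limma. Their order of tumours was not that of the sterol genes. Relative to the mean of the 6 tumours, the cell division genes averaged 0.28, 0.27 and 0.24 on the log2 scale in Notch1+/+ tumours 1 to 3 and -0.43, 0.07 and -0.41 in Notch1f/f tumours 1 to 3. The 17 cholesterol synthesis genes averaged -0.18, 0.51 and 0.49, and -0.10, -0.35 and -0.36. Notch1+/+ tumour 1 was thus high for cell division and low for cholesterol synthesis, and Notch1f/f tumour 2 was the highest of its group for cell division and low for cholesterol synthesis. The 5 genes of fatty acid and NADPH supply averaged 0.09, 0.14 and 0.06, and -0.26, 0.01 and -0.05. There Notch1f/f tumour 2 was the highest of its group, as for cell division, and Notch1+/+ tumour 1 was not low. The 7 desaturases and elongases averaged -0.34, 0.34 and 0.55, and -0.29, -0.29 and 0.04, with Notch1+/+ tumour 1 low. The part of proliferation in the lower synthesis genes was not tested.

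**Figure D4:**
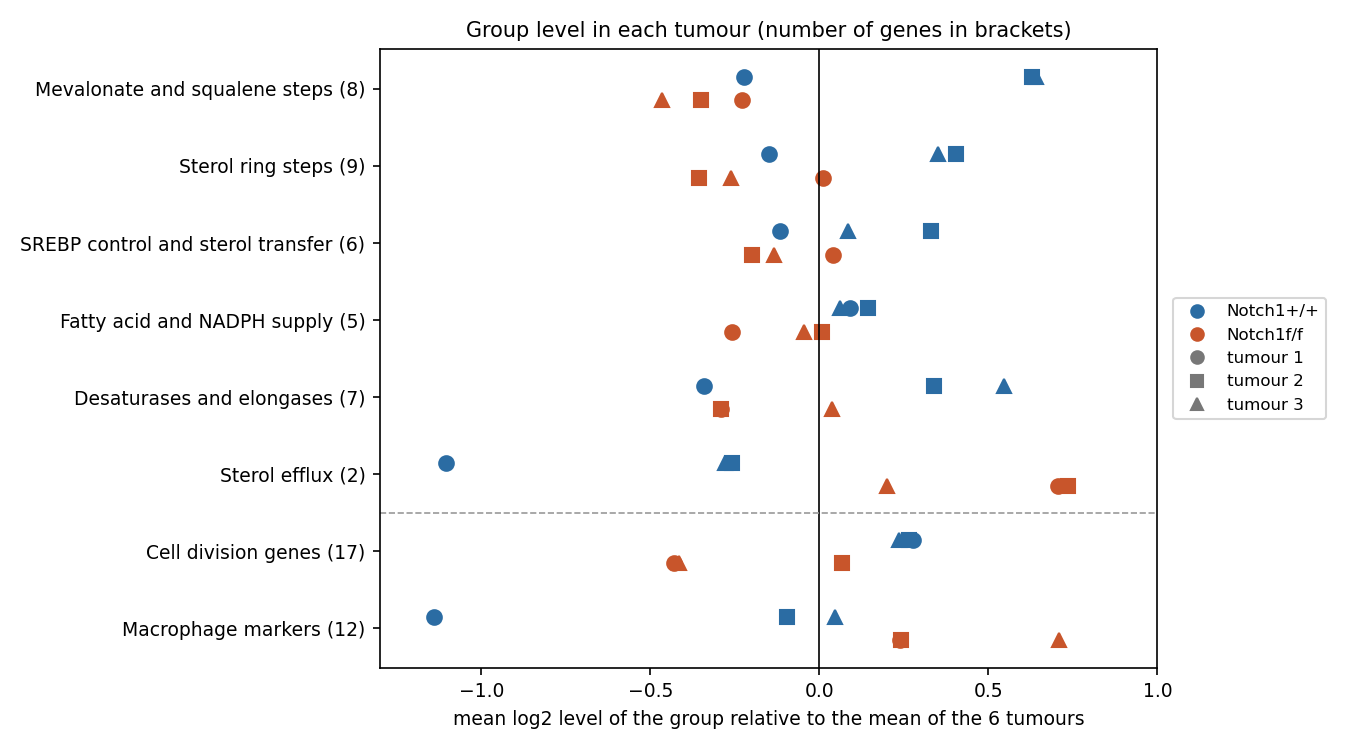
Mean log2 level of each role group in each tumour, relative to the mean of the 6 tumours (horizontal axis), with the cell division genes and macrophage markers below the dashed line. Blue points are Notch1+/+ and orange points Notch1f/f tumours, shaped by tumour number. Notch1+/+ tumours 2 and 3 lie to the right for the mevalonate and squalene steps, at 0.63 and 0.64, and tumour 1 lies with the Notch1f/f tumours at -0.22.

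The neighbouring lipid pathways did not share 1 direction. Of 15 measured genes of the isoprenoid and prenylation branch, 11 were below 0, with a median of -0.13. Dhdds, which makes dolichol precursors, had 114 ± 21.9 (SD, n = 3) in the Notch1+/+ tumours against 50.3 ± 13.1 (-0.98 ± 0.26), and Pdss2, of ubiquinone synthesis, 87.3 ± 8.13 against 55.2 ± 8.79. Rabggtb and Fnta, subunits of prenyltransferases, had log2 differences of -0.53 ± 0.29 and 0.28 ± 0.19. Among 24 further genes of fatty acid synthesis, 17 were below 0 with a median of -0.24. The leading ones were Aacs, which activates acetoacetate for lipid synthesis, at 115 ± 20.4 against 60.6 ± 18.8, and Acsl3, an acyl-CoA synthetase, at 95.9 ± 3.84 against 54.03 ± 4.41. Hacd3, a dehydratase of chain elongation, and Oxsm, of mitochondrial fatty acid synthesis, had -0.63 ± 0.21 and -0.56 ± 0.24.

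SREBP processing and sterol sensing genes were balanced, with 8 of 15 above 0 and a median of 0.07. Tmem97, a sterol-regulated membrane protein, had 196 ± 9.56 against 94.4 ± 15.6 (-0.95 ± 0.22, limma adjusted p = 0.212). Mylip, a ubiquitin ligase that LXR induces, was higher with the exporters, at 189.6, 179.9 and 292.8 against 533.0, 305.2 and 513.4 (0.97 ± 0.28, limma adjusted p = 0.280). Its groups did not overlap, although 292.8 and 305.2 were close. Pgrmc1 and Paqr3 had log2 differences of 0.39 ± 0.22 and -0.32 ± 0.16.

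Genes of sterol storage and transfer had a median of 0.02, with 8 of 14 above 0. Lipa, the lysosomal lipase that frees cholesterol from its esters, had 318.0, 418.2 and 248.9 against 890.3, 561.4 and 719.7 (1.11 ± 0.25, limma adjusted p = 0.202), and is also abundant in macrophages. Scp2, a sterol carrier of peroxisomes, had 573 ± 5.28 (SD, n = 3) against 908 ± 58.3. Npc2, a lysosomal sterol carrier, and Scarb1, a lipoprotein receptor, had log2 differences of 0.38 ± 0.20 and -0.53 ± 0.26.

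Fatty acid oxidation had 14 of 20 genes below 0 and a median of -0.12. Eci1, an isomerase of that pathway, was higher at 22.9 ± 9.93 against 7.03 ± 3.76 but dim, and Etfdh, Slc25a20 and Eci2 had -0.42 ± 0.26, 0.43 ± 0.27 and 0.29 ± 0.20. Phospholipid and triglyceride synthesis had 11 of 21 above 0 and a median of 0.05. Agpat3, an acyltransferase, had 378 ± 75.2 against 251 ± 34.4, while Dgat1, Pcyt2 and Agpat2 had -0.45 ± 0.24, -0.40 ± 0.22 and -0.77 ± 0.44. None of the genes of these 6 neighbouring lists passed an adjusted p of 0.05 in limma.

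**Figure D5:**
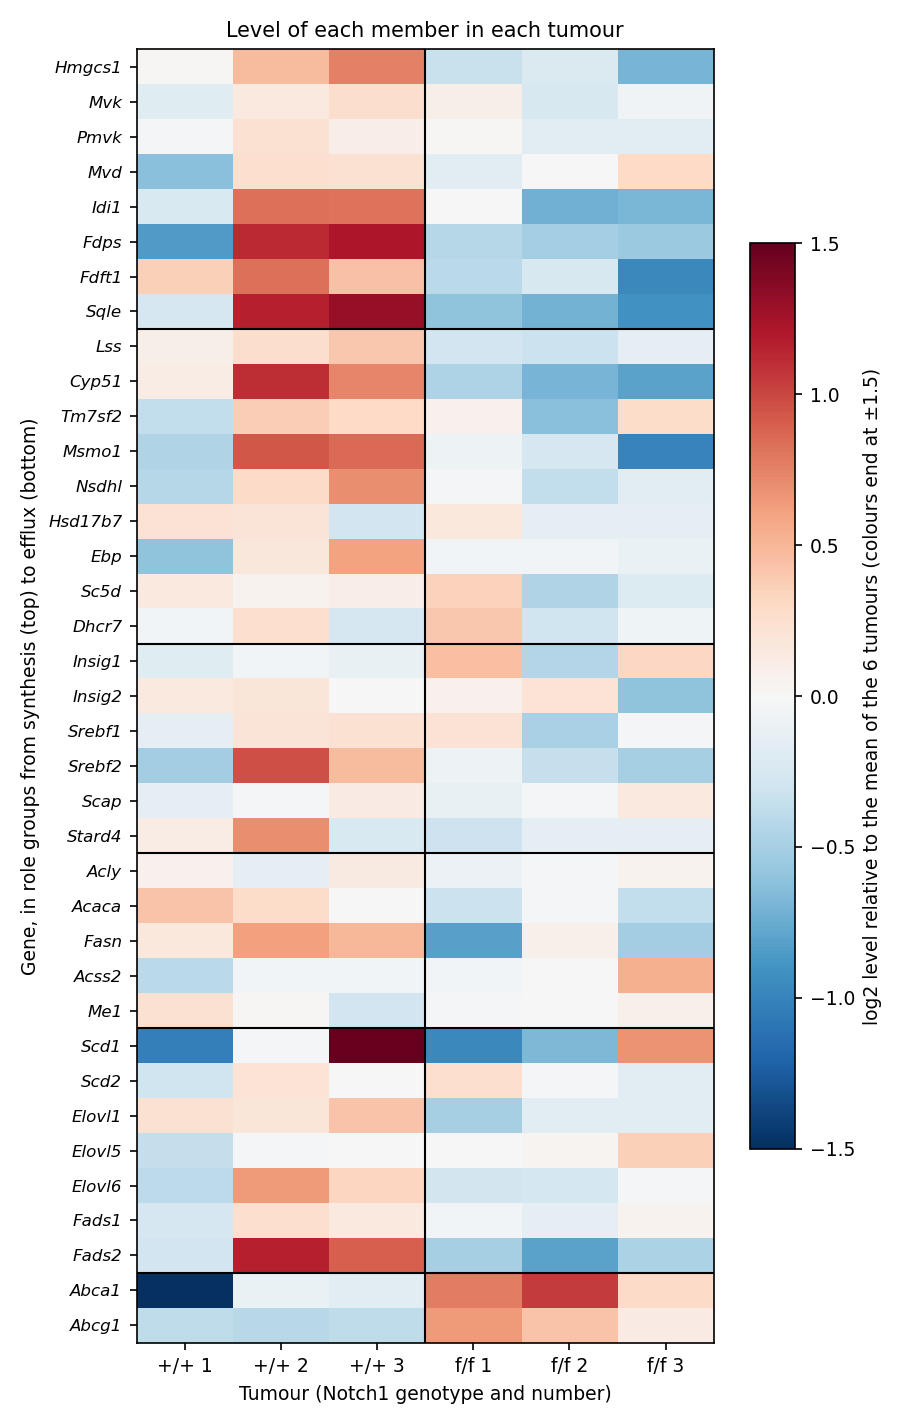
Log2 level (log2(intensity + 16)) of each of the 37 genes in each tumour, relative to the gene's mean over the 6 tumours, with red above and blue below it. Horizontal lines part the role groups in the order of the text, and colours end at 1.5 in either direction. Both Sqle and Fdps are dark red in Notch1+/+ tumours 2 and 3, while in tumour 1 both are blue.

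The number of members that stood apart depended on Notch1+/+ tumour 1. Of the 17 cholesterol synthesis genes, 14 had their lowest Notch1+/+ value in tumour 1, as did 36.6% of genes past the filter. In 6 of the 17, tumour 1 was at least 2-fold below both other tumours of its group. Against Notch1+/+ tumours 2 and 3 alone, every Notch1f/f tumour was lower in 13 of the 17. Without Notch1+/+ tumour 1, 20 of the 37 members were lower without overlap, against 17.0% of genes, and 13 were lower at an unadjusted p under 0.05, against 7.14%. Leaving out a tumour cannot lower a count without overlap, for members or for all genes, so the direction of that change was fixed in advance. Still no member passed an adjusted p of 0.05 in limma. The part of RNA quality, in which that tumour stood apart on the beta-actin control but hardly on Gapdh, was not tested.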

How the data were processed

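RNA of 6 thymic lymphomas was read on Affymetrix mouse arrays, 1 per tumour. The values deposited by the authors are intensities on a linear scale, made with MAS5, per the submitters' processing notes (version not given in the sources used here). Each array had been scaled to a trimmed mean of 100, as the values show. Detection calls were not used, so a dim signal cannot be told from background. Of 45101 probe sets, 34945 had 1 gene symbol in the array's annotation table. The symbols of the 37 members matched RefSeq (GRCm38.p6) through Entrez identifiers.

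The log2 of the intensity plus 16 was analysed. The 64 controls and probe sets under the 40th percentile of mean log2 (an intensity of 7.60) were left out, which left 27022. Groups were compared with limma 3.58.1 (lmFit, eBayes with trend, two-sided) under R 4.3.3, with Benjamini-Hochberg adjustment over these, after the fit had been tested on simulated data. Figures were drawn with matplotlib 3.10.9. Folds are on this scale and understate changes of dim genes.

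The members, gene lists and tests were chosen with earlier results of these data known. Every member is named, and from each neighbouring list the 4 genes with the smallest p. Alternatives were other pseudocounts (1 and 64), filters (none, the 60th percentile) and normalisations, eBayes without trend, array weights, a threshold of 0.10, other choices of probe set, and each tumour left out. The labels give no batch or pairing.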

Additional observations from a re-analysis of the deposited data

How the results depend on the processing

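No member passed an adjusted p of 0.05 in limma under any of 16 alternative settings, or 0.10 in the fit as reported. The lowest adjusted p under any alternative was 0.0827. The direction held under each of the 16 for 24 of the 37 members, among them all 12 without overlap. For those 12 this was largely fixed in advance. Leaving out a tumour or changing the pseudocount cannot reverse groups that do not overlap. For every member, array weights, the trend and the filters do not enter this difference, so they could not change its sign. The other 13 changed sign at least once, in 22 values in all. With arrays centred on the median, Acly was at 0.0098, and with quantile normalisation Scd2 was at -0.051. When probe sets of a gene were averaged, Scap was at -0.12, Me1 at -0.021 and Scd2 at -0.69. With each tumour left out in turn, the log2 difference ranged from -0.20 to 0.24 for Mvd, -0.25 to 0.0027 for Hsd17b7, -0.43 to 0.068 for Tm7sf2, -0.45 to 0.16 for Ebp and -0.17 to 0.19 for Dhcr7. It ranged from -0.39 to 0.022 for Insig2, -0.35 to 0.0047 for Srebf1 and -0.058 to 0.079 for Scap. For the fatty acid genes it ranged from -0.11 to 0.021 for Acly, -0.10 to 0.15 for Me1, -1.33 to 0.20 for Scd1, -0.085 to 0.17 for Scd2 and -0.24 to 0.011 for Fads1. The cause of these changes of sign was not tested.

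The median log2 difference of the members ranged from -0.29 to -0.16 over the settings that keep all 6 tumours and from -0.37 to -0.15 with a tumour left out. For the cholesterol synthesis genes these ranges were -0.41 to -0.29 and -0.59 to -0.25. Members lower at an unadjusted p under 0.05 numbered 6 to 13, and members lower without overlap 9 to 20, with a tumour left out, both highest without Notch1+/+ tumour 1. The count without overlap cannot fall when a tumour is left out. When probe sets of a gene were averaged, 1 member in place of 2 was higher at an unadjusted p under 0.05. No paired analysis was possible because the labels give the tumours of the 2 groups no shared numbers. Precision is limited by 3 arrays a group.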
